A study of Mus musculus with 6 samples.

Results

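The genes described here are 10 alpha and beta tubulins, Tuba1a, Tuba1b, Tuba1c, Tuba4a, Tubb2a, Tubb2b, Tubb3, Tubb4a, Tubb4b and Tubb5, taken by symbol out of 52962 genes in the deposited table. The poly(A) RNA of mouse brain cortex was read directly on a nanopore instrument, which passes each RNA molecule through a pore from its 3′ end and so gives a read and an estimate of its poly(A) tail length. The groups were 3 Fmr1 knockout (KO) libraries and 3 wild-type (WT) libraries, all from C57BL/6 cortex. Fmr1 encodes FMRP, an RNA-binding protein of neurons, and the series asks how tail lengths differ without it. The labels give neither the knockout allele nor the age or sex of the animals. Nor do they say whether each library is a different animal, so the spread between samples, and every p-value resting on it, may be technical.

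Alpha and beta tubulin pair into the dimers that polymerise into microtubules, the tracks and struts of axons and dendrites. Each is encoded by several genes whose coding sequences are very alike, and neurons use a particular mixture of them. Tubulin mRNAs are known for autoregulation: when free dimers are plentiful, the factor TTC5 binds the first residues of tubulin chains emerging from the ribosome, and with SCAPER it brings the CCR4-NOT deadenylase to the mRNA, which is then degraded. Tail length and abundance are therefore both of interest for this family.

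The start of the coding sequence is shown because it encodes the residues that this autoregulation reads. Each run is the first 30 bases of the coding sequence of the gene's leading transcript, the one with most reads, written 5′ to 3′ from GENCODE M21 on GRCm38, and capitals mark the first 4 codons.
Tuba1a: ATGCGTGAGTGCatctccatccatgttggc
Tuba1b: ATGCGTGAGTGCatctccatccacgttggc
Tuba1c: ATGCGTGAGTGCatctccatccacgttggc
Tuba4a: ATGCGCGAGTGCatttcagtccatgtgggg
Tubb2a: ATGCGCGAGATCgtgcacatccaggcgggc
Tubb2b: ATGCGAGAGATCgtgcacattcaggcgggc
Tubb3: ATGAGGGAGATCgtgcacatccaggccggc
Tubb4a: ATGCGGGAAATCgtgcacctgcaagccggt
Tubb4b: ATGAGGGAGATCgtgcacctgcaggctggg
Tubb5: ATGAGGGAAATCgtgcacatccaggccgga
All 4 alpha genes have TGC as the fourth codon, and all 6 beta genes have ATC. Tuba1b and Tuba1c share all 30 bases.

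Within each of the alpha and beta groups, the 3′UTRs, which also differ in length, were less alike than the coding sequences. Over the 6 alpha pairs identity was 84.7 to 98.3% in the coding sequence and 6.4 to 43.5% in the 3′UTR, and over the 15 beta pairs 81.4 to 96.5% and 12.1 to 47.5%. Tuba1a and Tuba1b were 98.3% identical over the coding sequence and 43.5% over the 3′UTR, and Tubb2a and Tubb2b were 96.5% and 21.3% identical. Between alpha and beta genes, over 24 pairs, identity was 55.9 to 58.5% in the coding sequence and 8.4 to 51.2% in the 3′UTR. It was counted over the whole alignment with gaps included, so it falls where lengths differ. The 3′UTRs of leading transcripts ran from 101 nt (Tuba1c) to 1394 nt (Tuba4a). Their identities are thus partly set by length, and the highest was between an alpha and a beta gene. The next runs are 20 bases around the poly(A) signal nearest the annotated 3′ end, with the hexamer in capitals, because the tail is added a short way downstream of it. The signals searched were AATAAA and ATTAAA, on the sense strand only, within the last 60 bases of the leading transcript.
Tuba1a: ggttttaAATAAAatactcc
Tuba1c: aactgtcAATAAAggtgttt
Tubb2a: ctatatgAATAAAaaagcat
Tubb3: tatacttAATAAAgttactg
Tubb4a: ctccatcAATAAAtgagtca
Tubb4b: taccaccATTAAAgcaattc
Tubb5: agccaaaAATAAAtgggaat
The hexamer ended 15 nt (Tubb5) to 26 nt (Tubb3) before the annotated transcript end. Neither hexamer was found in that window of the leading transcripts of Tuba1b, Tuba4a and Tubb2b. Over 58781 protein-coding transcripts, 41.1% held AATAAA there, 12.6% held ATTAAA and 51.0% held either. Among the tubulins 7 of 10 leading transcripts held one.

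The tubulins gave 115807 reads with a tail, between 14405 and 22348 per library, out of 2404074 to 3849077 per library. They made up 0.585 ± 0.0121% of tail reads in KO libraries and 0.571 ± 0.0141% in WT libraries (SD, n = 3 each). Of 25 annotated transcripts of the 10 genes, 15 had reads, and 10 passed the minimum of 10 tail reads in every library. These 10 held 99.96% of the family's reads. At the gene level 9 of 10 passed the same minimum, with 172 to 6251 reads per gene and library. Tuba1c, with 3 to 8 reads per library, did not. Markers of neurons, astrocytes, oligodendrocytes and their precursors, microglia, vessels and meninges, immature neurons, choroid plexus and blood all had reads, and neuronal markers summed to 4941 to 5091 CPM in KO libraries and 4758 to 4923 CPM in WT libraries, where CPM are tail reads scaled to library size with TMM factors. Fmr1 was at 10.9, 11.8 and 8.22 CPM in KO libraries, against 41.7, 45.1 and 46.4 CPM in WT libraries. Its log2 change was -2.13 ± 0.15 (SE; edgeR's quasi-likelihood test, adjusted p = 1.22e-10), which goes with the labels.

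Tubulin mRNAs carried short tails for cortex. The 9 genes that passed the minimum averaged 102.8 to 124.5 nt in KO libraries and 103.2 to 126.1 nt in WT libraries. The median over all 11323 genes that passed was 142.5 ± 2.16 nt in KO libraries and 144.6 ± 2.67 nt in WT libraries. The tubulins lay at the 2.65th to 16.8th percentile of these genes in KO and at the 2.74th to 17.6th percentile in WT. Genes with many reads had shorter tails than the rest: the 2344 genes with at least as many reads as Tubb2b had a median of 132.2 nt in KO and 132.7 nt in WT. Among 3589 genes with a leading transcript of 1500 to 3000 nt, the range that holds all 10 tubulins, the median was 137.8 nt in KO and 139.1 nt in WT. All 9 tubulins lay below each of these medians in both genotypes, and no test was made of this, since members of a family are not replicates.

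**Figure D1:**
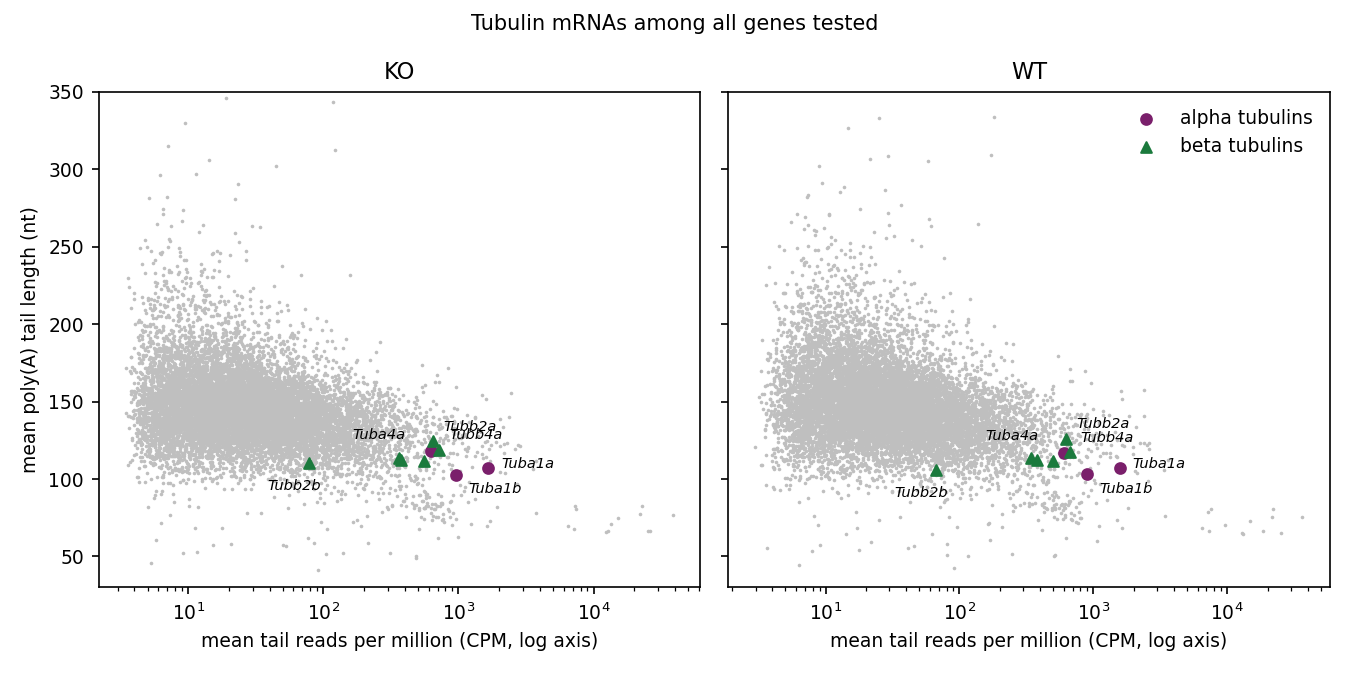
Mean poly(A) tail length (nt) against mean abundance (CPM, log axis) for each of the 11323 genes tested, in KO (left) and WT (right) cortex. Gray points are all genes, circles alpha and triangles beta tubulins. The tubulins lie in the lower part of the cloud, between 102.8 and 126.1 nt.

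Tuba1a, the main alpha tubulin of developing and mature neurons (chr15:98949837-98953703, minus strand), was the best covered. Its tails averaged 107.8, 105.9 and 108.3 nt in KO libraries, against 106.5, 106.9 and 108.0 nt in WT libraries. The 6 libraries lay within a few nt of one another and the genotypes overlapped. Tuba1b, an alpha tubulin expressed in most tissues (chr15:98931425-98934565, minus strand), had 103.3, 102.4 and 102.8 nt in KO libraries, against 102.8, 101.7 and 105.1 nt in WT libraries. It had the shortest tails of the 9 genes in 5 of 6 libraries, and its genotypes overlapped. Tuba4a, the alpha tubulin whose gene encodes no C-terminal tyrosine (chr1:75214228-75219865, minus strand), had 119.2, 116.7 and 117.7 nt in KO libraries, against 116.0, 115.4 and 119.5 nt in WT libraries. It had the longest tails of the 3 well covered alpha genes in every library. Tuba1c (chr15:99029891-99038110, plus strand) had 126.8, 158.0 and 142.8 nt in KO libraries, against 126.1, 101.8 and 95.6 nt in WT libraries. All KO values lay above all WT values, but each rests on 3 to 8 reads and was not tested.

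Among beta tubulins, Tubb2a (chr13:34074274-34078007, minus strand), abundant in brain, had 125.7, 124.6 and 123.1 nt in KO libraries, against 124.4, 124.8 and 129.1 nt in WT libraries. It had the longest tails of the 9 genes in all 6 libraries. Its neighbour on the chromosome, Tubb2b (chr13:34126748-34130466, minus strand), linked in humans to malformed cortex when mutated, had 108.1, 110.6 and 111.9 nt in KO libraries, against 108.8, 104.7 and 104.5 nt in WT libraries. One KO library lay below one WT library, so the groups overlapped, and this gene had the fewest reads of the 9. The pair Tubb2a and Tubb2b differed by 17.1 ± 4.72 nt (SD over 6 libraries). Tubb3, the neuron-specific beta tubulin used as a neuronal marker (chr8:123411424-123422015, plus strand), had 112.8, 111.7 and 113.1 nt in KO libraries, against 109.4, 111.9 and 115.0 nt in WT libraries. The KO values lay inside the range of the WT values.

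Tubb4a, a beta tubulin of neurons and oligodendrocytes (chr17:57080066-57087782, minus strand), had 116.6, 119.4 and 120.7 nt in KO libraries, against 116.3, 117.6 and 118.0 nt in WT libraries. The genotypes overlapped. Tubb4b, widely expressed and a component of cilia (chr2:25222160-25224702, minus strand), had 114.5, 111.5 and 114.7 nt in KO libraries, against 111.8, 113.8 and 114.2 nt in WT libraries. Tubb5, expressed in most tissues (chr17:35833921-35838306, minus strand), had 110.8, 109.8 and 113.8 nt in KO libraries, against 108.9, 112.9 and 114.1 nt in WT libraries. Both overlapped between genotypes. Coordinates are those of GRCm38, and each leading transcript has 4 exons.

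**Figure D2:**
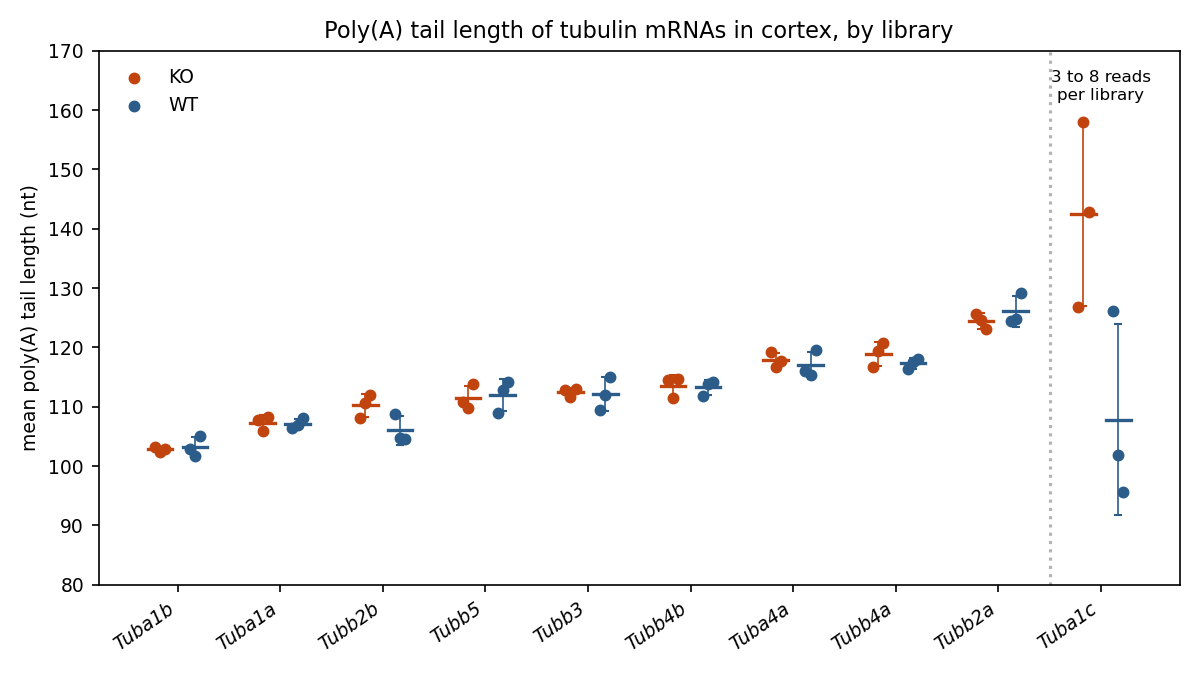
Mean poly(A) tail length (nt) of each tubulin gene in each KO and WT library, with genes in order of their mean over 6 libraries and Tuba1c apart at the right. Points are libraries and bars are mean ± SD (n = 3 each). Genotypes overlap for the 9 well covered genes, which run from Tuba1b to Tubb2a.

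Most of the order of tails among the well covered tubulins was shared by all libraries. By the mean of 6 libraries it ran from Tuba1b (103.0 nt) through Tuba1a (107.2 nt), Tubb2b (108.1 nt), Tubb5 (111.7 nt), Tubb3 (112.3 nt), Tubb4b (113.4 nt), Tuba4a (117.4 nt) and Tubb4a (118.1 nt) to Tubb2a (125.3 nt). Of the 36 pairs among the 9 tested genes, 30 had the same order in all 6 libraries, or 83.3%, against 60.8% of 64099503 pairs over all genes tested. The latter include genes near the minimum of 10 tail reads per library, against at least 172 for these 9. The 2 shares were not matched for depth. For each of the 30 pairs the two-sided exact sign-flip test over 6 libraries gave p = 0.03125, the smallest it can give. Any pair with the same order in all 6 libraries gets this p, so the test repeats the count. It was 0.0469 after Benjamini-Hochberg adjustment over all 45 pairs of the 10 genes, a value set by how many pairs were ordered. The 9 further pairs, those with Tuba1c, also varied in order. The 6 pairs of tested genes whose order varied were Tuba1a with Tubb2b, Tuba1b with Tubb2b, Tubb2b with Tubb5, Tubb3 with Tubb5, Tubb3 with Tubb4b, and Tuba4a with Tubb4a. Of neighbours in the order above, Tuba1b and Tuba1a, Tubb4b and Tuba4a, and Tubb4a and Tubb2a kept their order in every library. The other neighbours did not. Among the tested genes, the 2 near-identical coding pairs kept their order in all 6 libraries. Tuba1a tails exceeded Tuba1b tails by 4.20 ± 1.02 nt (SD, 6 libraries), and Tubb2a exceeded Tubb2b as given above. Tuba1c was also near-identical in coding sequence to Tuba1a (97.1%) and Tuba1b (97.9%). Neither of those pairs was ordered, on 3 to 8 reads of Tuba1c per library.

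Within the family, tail length showed little rank correlation with abundance or transcript length, though 9 genes could show only a strong relation. Over the 9 genes, Spearman's rho of tail length with CPM was -0.13 in KO and 0.00 in WT, and with leading transcript length 0.07 in KO and 0.03 in WT, given as a description of genes that share the same libraries. Weighted by reads, alpha tubulin mRNAs averaged 108.0 ± 0.954 nt in KO and 107.9 ± 1.38 nt in WT. Beta tubulin mRNAs averaged 116.9 ± 0.728 nt in KO and 116.8 ± 1.85 nt in WT. Most alpha reads were of Tuba1a and Tuba1b. By gene the alpha and beta groups interleaved, with Tuba4a at 117.4 nt and Tubb2b at 108.1 nt over 6 libraries. The genes whose tails were closest to those of Tuba1a were chosen by the root mean square difference of log2 tail length over 6 libraries, among 12282 genes with at least as many reads as Tuba1c in every library. They were Chchd10 (0.00944), Prdx5 (0.0136), Dynlrb1 (0.0136), Aldoc (0.0148) and Uqcrq (0.0148). Chchd10 had 107.2 ± 1.17 nt in KO and 107.3 ± 1.07 nt in WT.

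No change of tubulin tail length between genotypes passed the test. Changes on the log2(nt + 1) scale ran from -0.02 (Tubb2a) to 0.06 (Tubb2b), KO over WT, with adjusted p from 0.83 (Tubb2b) to 0.995 (Tuba1a; limma, adjusted over 11323 genes). None of the 9 genes had an unadjusted p under 0.05. Over all genes 0% were called, and 742 had an unadjusted p under 0.05. The median change was 0.00 over the tubulins and -0.02 over all genes, and 6 of 9 tubulins lay above 0, against 38.3% of all genes. Centred by each library's median, the 3 negative changes turned positive. Libraries of the genotypes overlapped for all 9, while they did not overlap for 11.7% of all genes, 3.22% with KO higher and 8.44% with KO lower. The 95% intervals bound what these libraries allow. For Tuba1a the interval ran from -4.31% to 4.86%, and for Tubb2b from -1.40% to 9.56%, KO relative to WT. Over the 9 genes the intervals reached from -6.63% (Tubb2a) to 9.56%. At the transcript level, 0 of 10 tubulin transcripts passed (limma), against 0% of 16168 transcripts.

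**Figure D3:**
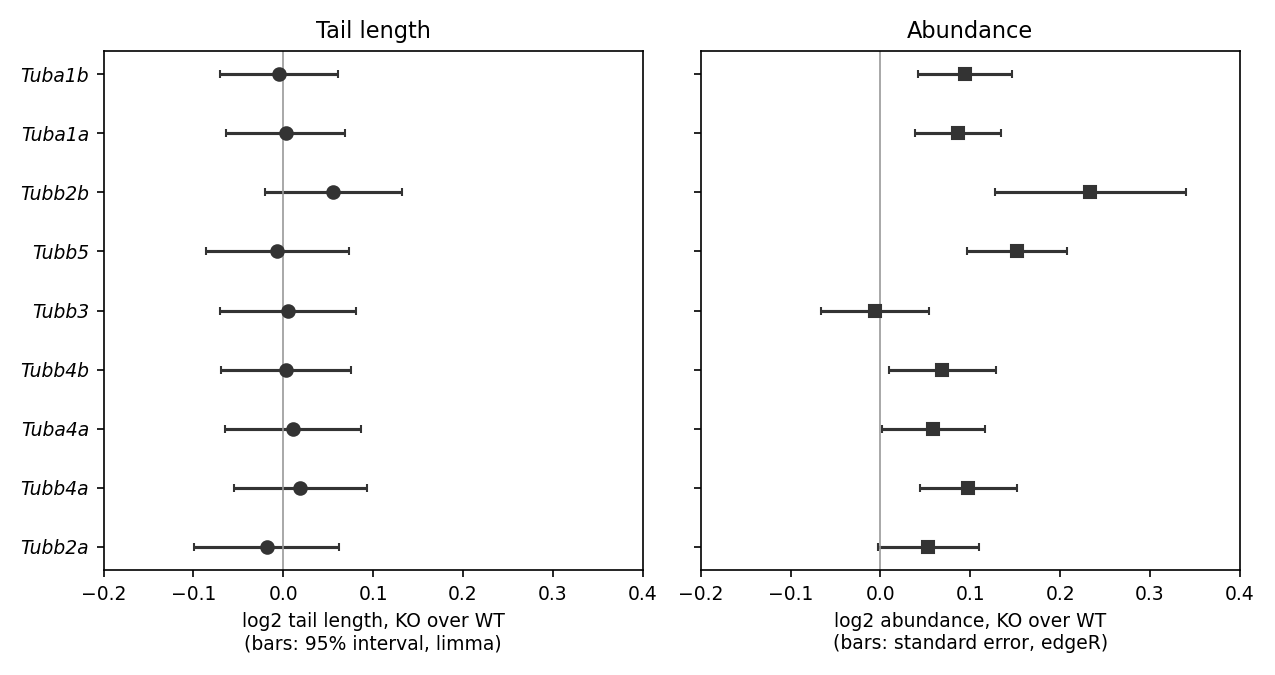
Change of tail length (left, bars are 95% intervals from limma) and of abundance (right, bars are standard errors from edgeR) for the 9 well covered tubulin genes, as log2 of KO over WT. Tail changes lie between -0.02 and 0.06 and abundance changes between -0.01 (Tubb3) and 0.23 (Tubb2b).

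Tuba4a was the only tubulin with more than 1 transcript past the minimum. Its leading transcript (ENSMUST00000186213.6) is 2840 nt long with a 3′UTR of 1394 nt, and the other (ENSMUST00000079464.12) is 2083 nt long with a 3′UTR of 650 nt and an annotated coding start that is incomplete. The shorter 3′UTR has its own signal, shown because the leading transcript has none in the window.
Tuba4a, shorter 3′UTR: ccatgctATTAAAagtcagg
Tails of the leading transcript exceeded those of the shorter one by 7.97, 4.08 and 2.53 nt in KO libraries and by 6.12, 8.34 and 1.01 nt in WT libraries. The transcript with the longer 3′UTR had the longer tail in 6 of 6 libraries, by 5.01 ± 2.97 nt (two-sided exact sign-flip test, p = 0.03125, the smallest possible, in a comparison added after the values were seen). The leading transcript held 76.9, 79.6 and 76.8% of Tuba4a reads in KO libraries, against 74.4, 78.2 and 81.0% in WT libraries. The KO shares lay inside the WT range (two-sided exact permutation test, p = 1, with 0.1 the smallest that 3 against 3 libraries can give). The leading transcript of every other tubulin held at least 99.9% of the gene's reads in each library.

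Tubulin mRNAs were among the more abundant of cortex, and none passed the test for a change in abundance. In CPM scaled by TMM, Tuba1a had 1646, 1709 and 1644 in KO libraries, against 1583, 1515 and 1610 in WT libraries. All 3 KO values lay above all 3 WT values. It ranked 37th in KO and 39th in WT among the genes tested for tails. Tuba1b had 989, 950.1 and 928 CPM in KO libraries, against 931, 865 and 890.5 CPM in WT libraries. Here one KO library fell just below the highest WT library. Tuba4a had 638, 622 and 629.8 CPM in KO libraries, against 557, 619 and 637 CPM in WT libraries, and the genotypes overlapped. Tuba1c was near the limit of detection, at 2.36, 1.27 and 1.76 CPM in KO libraries and 2.45, 1.37 and 1.80 CPM in WT libraries.

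Tubb5 had 559, 552 and 545 CPM in KO libraries, against 518, 478 and 494 CPM in WT libraries. Every KO library was above every WT library. Tubb2b had 84.6, 74.6 and 76.6 CPM in KO libraries, against 52.8, 67.7 and 79.3 CPM in WT libraries. The lowest value was WT replicate 1 and the groups overlapped. Tubb4b had 355, 377 and 351 CPM in KO libraries, against 349, 336 and 347 CPM in WT libraries, narrowly without overlap. Tubb4a had 731, 739 and 681 CPM in KO libraries, against 685, 664 and 661 CPM in WT libraries. Tubb2a had 649, 664 and 620.1 CPM in KO libraries, against 626, 585 and 651 CPM in WT libraries. Tubb3 had 370.1, 387 and 373 CPM in KO libraries, against 393, 356 and 385 CPM in WT libraries. These last 3 genes overlapped between genotypes.

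**Figure D4:**
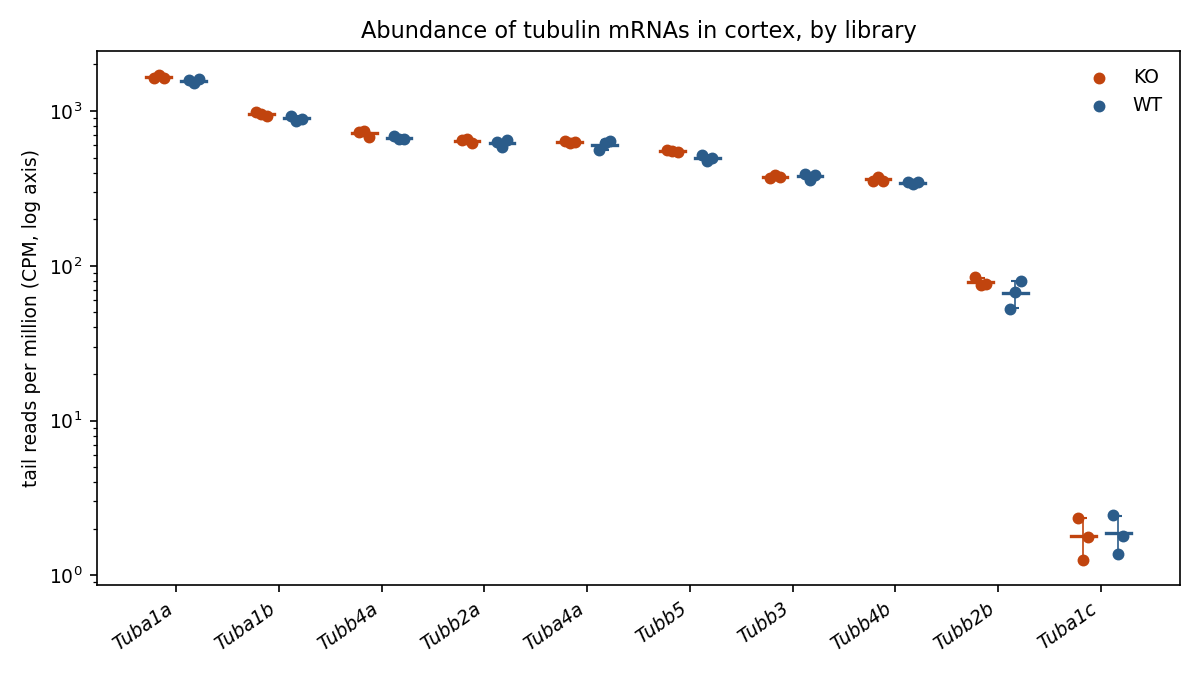
Abundance of each tubulin gene (CPM, TMM-scaled, log axis) in each KO and WT library. Points are libraries and bars are mean ± SD (n = 3 each). The genes run from Tuba1a, at 1667 CPM in KO and 1569 CPM in WT, to Tuba1c, under 3 CPM.

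Per kb of leading transcript, the levels ran in the order Tuba1a, Tuba1b, Tubb2a, Tubb4a, then Tubb4b, Tuba4a, Tubb5 and Tubb3 close together (the last 2 the other way round in WT), then Tubb2b. Tuba1a stood at 924 ± 20.3 CPM per kb in KO and 870.4 ± 27.2 in WT, Tuba1b at 548 ± 17.7 in KO and 514 ± 18.9 in WT. Tubb2a, the highest beta gene on this scale, stood at 400.3 ± 13.9 CPM per kb in KO and 386 ± 20.8 in WT. Its place above Tubb4a rests on the division by length. Before it, Tubb2a averaged 645 CPM in KO and 621 CPM in WT, and Tubb4a 717 CPM in KO and 669.9 CPM in WT. Each read comes from a single RNA molecule, so read number need not rise with transcript length. Values per kb, here and below, may thus understate longer transcripts, and by CPM Tubb4a was the highest beta gene. Tubb3 was at 202 ± 4.72 CPM per kb in KO and 202 ± 10.4 in WT, and Tubb2b was at 36.0 ± 2.41 in KO and 30.5 ± 6.11 in WT. In WT libraries Tubb4b, Tuba4a, Tubb3 and Tubb5 averaged between 188 and 215 CPM per kb.

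The test called 1.03% of 12543 genes (edgeR's quasi-likelihood test, adjusted p under 0.05), 0.574% higher and 0.454% lower in KO, and 0 of 9 tubulins. DESeq2 also called none of them. The smallest adjusted p was that of Tubb5, with a log2 change of 0.15 ± 0.06 (SE; edgeR, adjusted p = 0.221). Tubb2b had a log2 change of 0.23 ± 0.11 (SE; edgeR, adjusted p = 0.345), which became 0.10 with WT replicate 1 left out and 0.38 with WT replicate 3 left out. These were the 2 tubulins with an unadjusted p under 0.05, as had 1616 of all genes. The other log2 changes were 0.10 for Tubb4a, 0.09 for Tuba1b, 0.09 for Tuba1a, 0.07 for Tubb4b, 0.06 for Tuba4a, 0.05 for Tubb2a and -0.01 for Tubb3, which turned to 0.0024 on reads recovered from RPM. They lay above 0 for 8 of 9 tubulins, against 49.4% of all genes, with a median of 0.09 against 0.00 over all genes. By library size only the medians were 0.04 and -0.05, and the changes of Tubb2a and Tuba4a were 0.0033 and 0.0091. With limma on log2(RPM + 1) the medians were 0.02 and -0.04. Libraries of the genotypes did not overlap, with KO higher, for Tuba1a, Tubb4b and Tubb5, 3 of 9, against 9.12% of all genes in that direction, 8.16% in the other and 17.3% in either. Scaled by library size only, the count was 1 of 9, Tubb5, against 17.5% of all genes in either direction. No tubulin transcript passed for abundance (edgeR), against 0.517% of 19933 transcripts, 0.256% higher and 0.261% lower in KO.

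Summed over the 10 genes, tubulin mRNA stood at 6025, 6075 and 5851 CPM in KO libraries, against 5697, 5488 and 5756 CPM in WT libraries. All KO sums lay above all WT sums, by 5.96% on average, at the smallest p that 3 against 3 libraries can give (two-sided exact permutation test, p = 0.1). Scaled by library size only, the sums were 5881 ± 122 CPM in KO and 5745 ± 142 CPM in WT (p = 0.5, same exact test), and in deposited RPM they were 6019 ± 137 in KO and 5915 ± 156 in WT (p = 0.6, same exact test). Summed neuronal markers, 6 of 6 with reads, were also without overlap, as given above, but overlapped by library size only, at 4898 to 5020.0 CPM in KO and 4856 to 5007 CPM in WT. Their log2 changes lay above 0 for 4 and below for 2, with a median of 0.03. Markers of vessels and meninges, 5 of 5 with reads, summed to 90.2 to 109 CPM in KO libraries and 112 to 122 CPM in WT libraries, and those of oligodendrocyte precursors, 2 of 2 with reads, to 23.2 to 24.5 CPM in KO and 26.1 to 29.2 CPM in WT. Markers of choroid plexus, 4 of 4 with reads, summed to 13.5 to 27.8 CPM in KO and 32.2 to 833 CPM in WT, and Ttr, the one tested, was called lower in KO (log2 change -4.69 ± 0.64, SE; edgeR, adjusted p = 6.45e-05). The lists of vessels and meninges, oligodendrocyte precursors and choroid plexus were without overlap under both scalings. Those of astrocytes, oligodendrocytes, microglia, immature neurons and blood overlapped under both. Log2 changes of vessel and meningeal markers lay above 0 for 1 and below for 4, and those of the 2 precursor markers lay below. Among single genes 17.3% were without overlap in either direction. The part of these cell types in the tubulin levels was not tested. In bulk tissue, more cells of a type and more RNA per cell cannot be told apart.

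The balance of alpha to beta differed between genotypes by less than its spread. Alpha genes held 54.4 ± 0.365% of tubulin tail reads in KO libraries and 54.4 ± 0.397% in WT libraries (two-sided exact permutation test, p = 1), and per kb of leading transcript 54.9 ± 0.364% in KO and 54.7 ± 0.255% in WT (p = 0.6, same exact test). Tubb3 made up 6.30 ± 0.133% of tubulin CPM in KO and 6.69 ± 0.206% in WT, without overlap (exact permutation p = 0.1, the smallest possible, 1 of 10 genes compared). In the authors' deposited table, Fmr1 has a log2 value of 2.86 for its leading transcript, so its values were read as WT over KO. For the leading tubulin transcripts the authors' deposited table gives -0.16 (Tubb5, unadjusted p = 0.0101) to 0.44 (Tuba1c, unadjusted p = 0.267). The authors' deposited table lists an unadjusted p under 0.05 for one other of the 10, Tuba1b, at -0.12.

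Tuba1c stood apart in how many of its assigned reads had a tail. Whole reads could be recovered from deposited RPM, and the reads with a tail of Tuba1c were 22.9, 13.04 and 28.6% of them in KO libraries and 26.7, 11.9 and 17.5% in WT libraries, out of 21 to 42 recovered reads. The other tubulins averaged 66.4% (Tubb2b) to 77.3% (Tuba4a) in KO and 66.4% (Tubb2b) to 82.0% (Tuba4a) in WT. Over all transcripts the share was 75.8 ± 1.36% in KO and 80.6 ± 4.40% in WT. In each library some transcripts, 5306 to 10245 of them, had more tail reads than recovered reads, so the share is not strictly a part of a whole. How either count was assigned to transcripts was not tested. Reads of near-identical genes are uncertain, since 97.4%, 98.1% and 96.2% of 25-base words in the coding sequences of Tuba1a, Tuba1b and Tuba1c also occur in another gene. The figure was 83.4% for Tubb4b, 79.5% for Tubb2b and 71.6% for Tubb2a, and at most 14.4% for Tuba4a, Tubb3, Tubb4a and Tubb5. In the 3′UTR it was 6.02% for Tuba1b, 8.39% for Tubb5 and 0% for the other genes. Over a window at the 3′ end, equal for all genes, it was 38.5% for Tuba1c, 25% for Tubb4b and 22.5% for Tuba1b. There it was 1.5% for Tuba1a and 0% for the rest. That window reaches into the coding sequence where the 3′UTR is short.

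**Figure D5:**
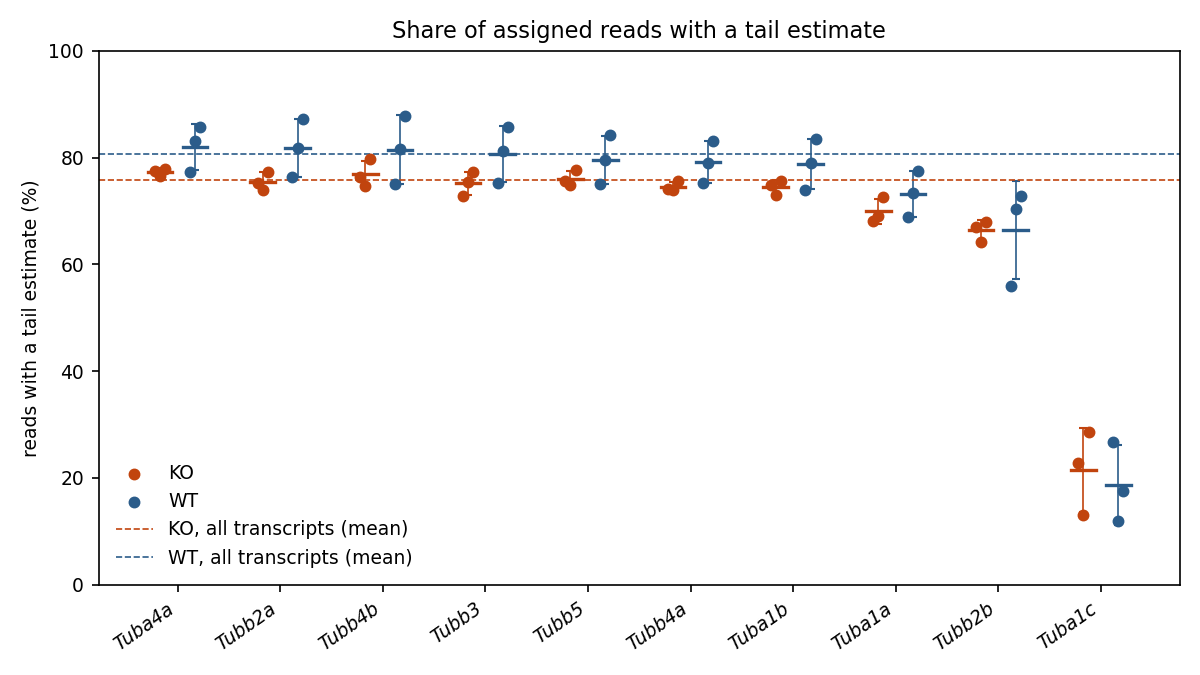
Reads with a tail estimate as a percentage of the reads recovered from deposited RPM, for each tubulin gene in each KO and WT library. Points are libraries, bars are mean ± SD (n = 3 each), and dashed lines are the means over all transcripts. Tuba1c lies under 30% and the other genes lie between 56.0 and 87.8%.

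Other genes of the tubulin pathway showed no change that passed. Of 64 genes in 5 lists, 44 were tested for tails and 50 for abundance, with 0 called for tails (limma), 0 called higher and 0 called lower for abundance (edgeR), against 0%, 0.574% and 0.454% of all genes. Counts of 0 among so few genes are near those shares. Among other tubulins, 3 were tested for tails and 4 for abundance, and Tuba3a, Tuba3b, Tubal3 and Tubb1 had no tail read. The gamma tubulins, which seed microtubules, had tails of 125.9 ± 7.38 nt in KO and 132.4 ± 1.97 nt in WT for Tubg2, and 127.8 ± 4.44 nt in KO and 127.5 ± 2.55 nt in WT for Tubg1. They are near-identical copies of each other, so their reads may be shared.

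All 8 cofactors that fold tubulin and assemble its dimer were tested, with a median log2 change of -0.05 in tails, against -0.02 over all genes, and 0.10 in abundance, against 0.00 over all genes. The small GTPase Arl2, which works with them, had tails of 124.7 ± 4.62 nt in KO and 127.3 ± 1.61 nt in WT. Tbcb, which binds alpha tubulin, had 109.4 ± 1.56 nt in KO and 105.4 ± 4.89 nt in WT. All 12 autoregulation genes were tested, with median log2 changes of -0.03 in tails and 0.04 in abundance. Its deadenylase subunits had tails of 158.1 ± 4.14 nt in KO and 158.6 ± 6.89 nt in WT for Cnot7, and 139.5 ± 1.67 nt in KO and 142.8 ± 3.53 nt in WT for Cnot8. Among enzymes that modify tubulin, 13 of 21 were tested for tails and 16 for abundance, with medians of -0.02 and 0.00. The deacetylase Sirt2 had tails of 126.2 ± 7.15 nt in KO and 133.5 ± 5.55 nt in WT, and the glutamylase Ttll7 had 154.8 ± 6.04 nt in KO and 156.8 ± 3.35 nt in WT. Of 13 severing and nucleation genes, 8 were tested for tails and 10 for abundance, with medians of -0.04 and -0.15. The severing enzyme Katnal1 had tails of 152.2 ± 7.17 nt in KO and 147.4 ± 4.52 nt in WT. Spastin, encoded by Spast, had 142.9 ± 4.77 nt in KO and 154.6 ± 1.23 nt in WT, and all its KO values lay below all its WT values (log2 change -0.11 ± 0.04, SE; limma, adjusted p = 0.737).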

How the data were processed

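Per the file headers, the deposited table gives per transcript and sample a mean tail length in nt, the count of reads with a tail, and an RPM. It also holds the authors' log2 fold change and p-value per transcript, whose direction the header does not state. Tools listed in the submitters' processing notes are Salmon 1.5.2, minimap2 2.17, DESeq2 and SAMtools 1.9, with build mm10 and no roles. For tail estimation, no tool is given in the sources used here. Deposited RPM values were whole multiples of 1 read, within 0.01, for 99.9% of values in WT replicate 1 and 100% elsewhere, and edgeR on those recovered reads called 101 genes. Of 141196 transcripts, 97.6% matched GENCODE M21.

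Gene tails were read-weighted means. They were tested as log2(nt + 1) with limma 3.58.1 (variance trend on mean tail length) at 10 or more tail reads in each sample. Tail read counts were tested with edgeR 4.0.16 (TMM, filterByExpr), with Benjamini-Hochberg adjustment over all features and a threshold of 0.05. Scripts were tested on simulated data. Single values per sample had exact permutation tests. DESeq2 1.42.0, other scalings, filters and weights, left-out libraries and a replicate block were tried. Named genes were all members, Fmr1, in each pathway list any gene called or otherwise the 2 with most reads, and the 5 tails nearest Tuba1a. Members, lists and rules were chosen with earlier results of these data known. The main tests did not pair samples by replicate number, and whether the numbers mark pairs is not known.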

Additional observations from a re-analysis of the deposited data

How the results depend on the processing

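In 252 refits of single tubulin genes under other settings none was called, and the smallest adjusted p was 0.708 for tails (limma) and 0.0865 for abundance (edgeR, without WT replicate 3). Tail changes near 0 turned sign when values were centred by the sample median, to 0.0157 for Tuba1b, 0.0023 for Tubb2a and 0.0144 for Tubb5 (log2), the shift built into that setting. With 1 library left out, tail changes ran from -0.0038 to 0.0119 for Tuba1a, -0.0159 to 0.0081 for Tuba1b, -0.0122 to 0.0237 for Tubb3, -0.0058 to 0.0166 for Tubb4b and -0.0262 to 0.0073 for Tubb5. The abundance change of Tubb3 was 0.0024 on recovered reads and -0.0449 to 0.0232 with 1 library left out. The cause was not tested. The KO minus WT difference in summed tubulin abundance, 336 CPM, was 104 in deposited RPM and 136 by library size only, a setting chosen after seeing the data, and 257 to 403 CPM with 1 library left out. Ordered pairs numbered 30 to 32 with 1 library left out, a count that such a step can only keep or raise. By the transcript with most reads they numbered 30. Over all genes, tail calls were 15 with a variance trend on read number and 28 with read weights, against 0, and abundance calls were 62 with DESeq2, 249 without a count filter, and 57 to 206 with 1 library left out, against 129. Over transcripts, abundance calls were 28 with DESeq2, 180 without a filter and 44 to 163 with 1 library left out, against 103. Same-numbered KO and WT samples correlated at 0.0235, -0.0658 and 0.0506 in abundance deviations, and differently numbered ones at -0.0968 to 0.0685. Such deviations hold counting noise, so values near 0 cannot show whether the numbers pair samples. A replicate block gave 92 gene calls and 171 transcript calls in abundance, 0 in tails, and none of a tubulin. Depth limits Tuba1c, at 3 to 8 reads per library, and next Tubb2b, at 172 to 308.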

Other observations

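Tuba8, an alpha tubulin outside the 10 genes, is given here because its values stood out, and it was chosen after they were seen. Its tails averaged 112.8, 108.1 and 113.7 nt in KO libraries, against 114.3, 126.1 and 125.8 nt in WT libraries, on 32 to 63 reads per library. Every KO value lay below every WT value, the log2 change was -0.13 ± 0.05 (SE), and it did not pass after adjustment (limma, unadjusted p = 0.0339, adjusted p = 0.737). Libraries separate with KO lower for 8.44% of all genes tested.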
